A study of Mus musculus with 8 samples.

Results

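Oxidative phosphorylation is carried out by 5 protein complexes of the inner mitochondrial membrane, and the genes described here are the nuclear genes that encode their subunits, together with cytochrome c. They were taken by symbol: every gene whose deposited symbol began with Nduf, Uqcr or Atp5, with Sdh followed by a letter from a to d, or with Cox followed by a number from 4 to 8, plus Cycs and Cyc1. The rule matched 96 symbols with 136 transcripts. The transcript with the highest level stood for its gene, and genes whose larger group mean reached 1 RPKM were kept, 94 members among 15821 genes. RPKM counts reads per length of transcript, scaled to library size, so levels of different genes can be set side by side. Cox6a2 and Cox8b, the muscle isoforms of their subunits, were below that minimum, with means of 0.47 and 0.38 RPKM in wild type and 0.20 and 0.35 RPKM in the other group. The member just inside it was Cox8c, with 1.78 and 1.15 RPKM. Cox4nb is an older symbol of an unrelated gene, COX4AL was not matched to a gene, and Uqcr is an older symbol of Uqcr11, so these 3 were set aside, and 91 members are described.

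The samples were testes of mice on the 129/SVJ background at postnatal day 5. Total RNA was sequenced from 4 wild-type samples and 4 samples labelled Dio3KO, and the title names thyroid hormone regulation in the neonatal testis as the question. The product of Dio3, a deiodinase, removes iodine from thyroid hormones and so inactivates them. The labels give the tissue as testis while their extraction text names hypothalami, and they describe neither the alteration in Dio3 nor whether samples shared a litter, so p-values measure only the spread between these samples.

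The electron transport chain passes electrons from NADH through complex I, or from succinate through complex II, to ubiquinone, and from there through complex III and the small soluble protein cytochrome c to complex IV, which reduces oxygen. Complexes I, III and IV pump protons, and complex V, the ATP synthase, uses the gradient to make ATP. A few core subunits of complexes I, III, IV and V are encoded in mitochondrial DNA, and all other subunits are imported from the cytosol. Thyroid hormone is a textbook stimulus of mitochondrial respiration in tissues such as liver, heart and muscle, while the adult testis was long described as little responsive.

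The level of Dio3 did not serve as a check of the labels: its mean was 0.52 RPKM in wild type and rose to 2.95 RPKM with the Dio3KO label (p 0.0408 in the authors' deposited table). Summed markers of Sertoli-like cells (4 of 5 genes measured) were 813 RPKM among wild-type samples and 660 RPKM among Dio3KO-labelled ones, those of Leydig-like cells (5 of 5) 387 and 571 RPKM, and of germ-like cells (4 of 5) 144 and 136 RPKM. The Sertoli-like sum moved mainly through Amh, which fell from 284.35 to 127.02 RPKM, while Dhh fell from 82.40 to 64.23 RPKM and Inha (434.56 and 454.96 RPKM) and Sox9 (12.12 and 13.42 RPKM) were not called. In the Leydig-like list Cyp11a1 and Hsd3b1 rose, and Star (24.83 and 44.90 RPKM), Insl3 (84.67 and 70.01 RPKM) and Cyp17a1 (55.45 and 55.07 RPKM) were not called. The germ cell marker Dppa3 was near 0, at 0.11 and 0.07 RPKM. With 4 genes each, peritubular-like markers summed to 485 and 452 RPKM, a sum led by Acta2, which fell from 401.09 to 346.33 RPKM while Des and Myh11 rose. Macrophage-like markers summed to 24.9 and 51.7 RPKM and endothelial-like ones to 43.5 and 52.3 RPKM, and 2 red blood cell genes to 469 and 424 RPKM. All 10 genes of a cell cycle list fell in the authors' deposited table. In whole tissue, fewer cells of a type and less RNA per cell cannot be told apart. The part that these shifts have in the results below was not tested.

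Most members differed little between the groups. Each p quoted from the authors' deposited table is their adjusted p, and pairs of levels are given with wild type first. In the authors' deposited table, 10 of 91 members had an adjusted p below 0.05, against 29.7% of all genes. Of these, 2 were higher in the Dio3KO-labelled group (2.20% of members, 13.8% of all genes) and 8 were lower (8.79% of members, 15.8% of all genes). The log2 ratio of the means, Dio3KO-labelled over wild type with 0.5 RPKM added to each, was between -0.30 and 0.30 in 85 members (93.4%) and in 73.2% of all genes. The members are abundant transcripts, and the same held among genes whose larger mean reached 50 RPKM: 71 of 73 members (97.3%) and 69.3% of 1917 genes were in that band. In this abundant set 1 of the 73 members was called higher and 7 lower, against 334 and 436 of the 1917 genes.

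**Figure D1:**
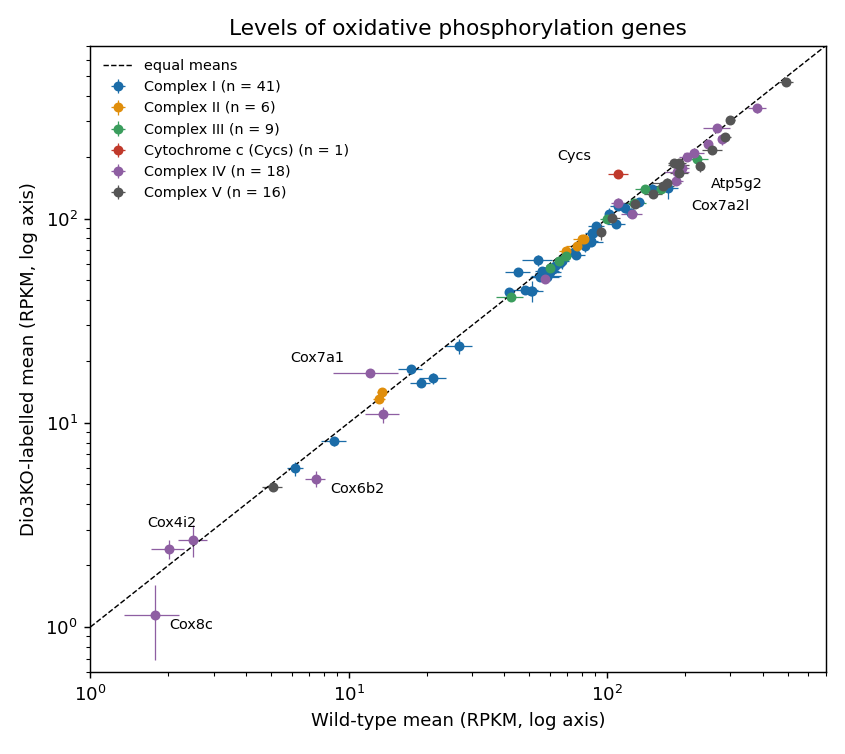
Mean RPKM of each of the 91 members in wild type (horizontal, log scale) and in the Dio3KO-labelled group (vertical, log scale), coloured by complex, with bars of 1 SD from the deposited CVs and a line of equal levels. Most points lie close to the line, and levels run from Cox8c (1.78 and 1.15 RPKM) to Atp5b (494 and 466 RPKM). Cycs and Cox7a1 (12.08 and 17.57 RPKM) stand above the line, and Cox8c and Cox6b2 (7.45 and 5.33 RPKM) below it.

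The small differences were mostly in 1 direction as deposited. How many ratios were below 0 rests on the scale, while the members' median was below that of all genes under each scaling. As deposited, 75 of 91 ratios were below 0 (82.4%, against 58.1% of all genes) and the median log2 ratio was -0.10, against -0.05 for all genes. After each group was divided by its total RPKM, 46 were below 0 (50.5%, against 41.8%) and the median was -0.003, against 0.044 for all genes. With the median of all genes subtracted, 62 were below 0 (68.1%, against 7910 of the 15821 genes) and the median was -0.05, against 0 for all genes. The difference from all genes was not tested. The members' levels summed to 10001 RPKM for wild type and 9353 RPKM for the Dio3KO label, a difference of -6.48%. The total over all transcripts was also lower, at 947625 against 1015250 RPKM.

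Calls depended on the test as well. A moderated limma test rebuilt from the deposited means and coefficients of variation (CV, the SD divided by the mean) called 23 members at a Benjamini-Hochberg adjusted p below 0.05 (41.6% of all genes), 3 higher and 20 lower, against 18.5% and 23.1% of all genes. After scaling by the total it called 15 members (40.7% of all genes), 10 higher and 5 lower, against 27.9% and 12.7% of all genes. After centring on the median it called 16 members (39.7% of all genes), 5 higher and 11 lower, against 23.0% and 16.7%. A set of 4 calls was made by the deposited p-value and by limma under each scaling: Cycs was higher, and Atp5g2, Cox7a2l and Cox6b2 were lower.

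Cycs encodes somatic cytochrome c, which carries electrons from complex III to complex IV and, once released into the cytosol, triggers caspase activation. Its mean was 110.54 RPKM in wild type (CV 0.09) and 164.31 RPKM with the Dio3KO label (CV 0.03), a difference of 48.6%. The log2 ratio was 0.57 ± 0.07 (SE from the CVs), and the rise had p = 0.0077 in the authors' deposited table. No other member had so high a ratio, although 907 of all genes (5.73%) did. Scaling by the total gave 0.67 and centring gave 0.62. Cytochrome c has processed pseudogenes, and the sources used here do not say how reads matching several copies were assigned.

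The promoters of Cycs and Atp5g2 are shown because these are the member called higher by every test and the member with the smallest p among those called lower. The sequences are the 250 bases before the RefSeq transcription start in GRCm38.p6, written 5′ to 3′ on the gene's strand. Cycs lies on chromosome 6, minus strand, with the window at chr6:50566570-50566819, and the capitals mark a cyclic AMP response element, TGACGTCA, at 169 to 162 bases before the start. Atp5g2 lies on chromosome 15, minus strand, with the window at chr15:102671048-102671297. Its capitals mark a match to the site of nuclear respiratory factor 1 at 42 to 33 bases before the start. Only exact matches are in capitals. The Cycs window had no exact match to the nuclear respiratory factor 1 site, but it holds near matches to both sites in lower case. Near matches were not searched for, so lower case does not show that a site is absent.
Cycs: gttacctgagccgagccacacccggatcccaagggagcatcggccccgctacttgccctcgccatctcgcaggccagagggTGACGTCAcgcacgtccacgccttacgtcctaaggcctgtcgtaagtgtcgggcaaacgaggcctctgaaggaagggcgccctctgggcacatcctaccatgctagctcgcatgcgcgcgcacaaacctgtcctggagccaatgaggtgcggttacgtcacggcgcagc
Atp5g2: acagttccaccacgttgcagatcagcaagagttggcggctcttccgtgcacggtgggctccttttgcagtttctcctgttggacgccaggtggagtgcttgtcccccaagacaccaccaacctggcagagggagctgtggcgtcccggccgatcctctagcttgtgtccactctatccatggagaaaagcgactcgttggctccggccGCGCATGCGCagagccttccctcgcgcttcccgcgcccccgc

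The 76 members matched to a RefSeq promoter (250 bases before to 50 after the start) were searched on both strands for 6 motifs, as were all 27025 genes in that table. The palindromic motif of nuclear respiratory factor 1 was in 18 members (23.7%) and in 5.19% of all genes. The GABP motif CCGGAAG was in 19 members (against 9.93% of all genes), and the YY1 motif AANATGGCG in 12 (15.8%, against 2.76%). The response element TGACGTCA was in 5 members (6.58%, against 2.03%), and the estrogen-related receptor motif TCAAGGTCA in Sdhd and Atp5g3 (2.63%, against 0.466%). The thyroid hormone direct repeat, a pair of AGGTCA sites with NNNN between them, was in 0 members and 0.0148% of genes. Of the 8 members called lower, Atp5g2 held the first motif and Ndufb6 the GABP motif. No matches of different motifs overlapped in the members, and base composition was not matched between members and other genes. A match describes letters in the window and is not a measured binding site.

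Complex I, which oxidises NADH, had 41 members: 7 core subunits, 29 accessory subunits and 5 assembly factors, with Atp5sl among the last despite its symbol. Of these, 1 was called higher and 3 lower by the deposited p-value, and the median log2 ratio was -0.11, or -0.02 after scaling by the total. By limma 1 was higher and 7 lower on the values as deposited, 5 and 2 after scaling by the total, and 2 and 5 after centring. Ndufs1, the largest subunit of the electron-transfer arm with several of its iron-sulfur clusters, had 41.75 RPKM in wild type (CV 0.01) and 43.61 RPKM in the Dio3KO-labelled group (CV 0.02). Its log2 ratio of 0.06 ± 0.02 was the smallest difference among the members called, and it rose with p 0.0488 in the authors' deposited table. That call was not made by limma on the values as deposited (adjusted p 0.245), and it differed among the 6 Ndufs1 transcripts, whose p-values in the authors' deposited table ran from 0.0454 to 0.428. Ndufs3, a core subunit of the arm that leads electrons to ubiquinone, had the highest average of the core subunits not called, with 88.31 and 84.75 RPKM.

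The 3 complex I members that fell are accessory subunits. Ndufab1, the mitochondrial acyl carrier protein, fell from 50.79 to 44.26 RPKM (CVs 0.04 and 0.03), a log2 ratio of -0.20 ± 0.04, and its adjusted p was 0.0191 in the authors' deposited table. One of its 3 transcripts had p = 0.055 in the authors' deposited table. Ndufa12, a subunit of the peripheral arm, fell from 124.10 to 106.64 RPKM (CVs 0.05 and 0.05), a log2 ratio of -0.22 ± 0.05, and its adjusted p was 0.0281 in the authors' deposited table. Ndufb6, a membrane arm subunit, fell from 65.47 to 60.76 RPKM (CVs 0.03 and 0.02), with p = 0.0337 in the authors' deposited table and an adjusted p of 0.0728 by limma. After scaling by the total, limma called none of the 3 (adjusted p 0.124, 0.111 and 0.901 for Ndufab1, Ndufa12 and Ndufb6), with log2 ratios of -0.10, -0.12 and -0.01. Ndufa7 and Ndufb9 were the most abundant accessory subunits not called by the deposited p-value. Ndufa7 had 172.18 and 140.48 RPKM, with CVs of 0.09 and 0.11 and a limma adjusted p of 0.0178 (0.0951 after scaling by the total), and Ndufb9 had 148.79 and 138.88 RPKM. Ndufa1, a small membrane arm subunit encoded on the X chromosome, had 45.30 RPKM (CV 0.11) and 55.01 RPKM (CV 0.02), with p = 0.0681 in the authors' deposited table. Limma called it higher, with an adjusted p of 0.00889 (0.00136 after scaling by the total and 0.00351 after centring).

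Complexes II and III had no member with a deposited adjusted p below 0.05, and limma on the values as deposited called 0 and 2. After scaling by the total it called 1 in complex II, Sdhaf2, higher with an adjusted p of 0.0380, and 0 in complex III, and after centring 0 in either. The 2 Sdhaf2 transcripts had log2 ratios of opposite sign as deposited, -0.09 and 0.06, and RPKM summed over transcripts gave 0.0. Complex II, which is also succinate dehydrogenase of the tricarboxylic acid cycle and is wholly nuclear-encoded, had 6 members with ratios from -0.06 to 0.06 and a median of -0.01, which became 0.09 after scaling by the total. The catalytic flavoprotein Sdha had 81.02 and 79.72 RPKM and the iron-sulfur subunit Sdhb 80.11 and 79.17 RPKM. The membrane anchors Sdhc and Sdhd had 69.32 and 69.21 RPKM and 76.43 and 73.38 RPKM, so the 4 subunits were at similar levels in both groups. The assembly factors were less abundant than these subunits in both groups, with 13.09 and 13.08 RPKM for Sdhaf1 and 13.49 and 14.08 RPKM for Sdhaf2. In complex III all 9 ratios were below 0 as deposited, 2 of 9 after scaling by the total and 6 of 9 after centring, with a median of -0.08 as deposited and 0.02 after scaling by the total. Cyc1, the cytochrome c1 subunit, had 60.06 and 57.29 RPKM, and Uqcrfs1, the Rieske iron-sulfur protein, 65.34 and 61.79 RPKM. The most abundant complex III members were Uqcrh, the hinge protein, with 223.44 and 194.91 RPKM, and Uqcrb, with 161.14 and 140.11 RPKM. By limma both were called lower on the values as deposited, with adjusted p-values of 0.0479 and 0.0318.

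Complex IV, cytochrome c oxidase, had 18 members, of which 4 were called lower and 0 higher in the authors' deposited table, with a median log2 ratio of -0.14, or -0.04 after scaling by the total. By limma 1 was higher and 6 lower as deposited, 3 and 2 after scaling by the total, and 2 and 4 after centring. Its catalytic subunits are mitochondrially encoded, so the nuclear members are accessory subunits, with 1 assembly factor, and Ndufa4 and Ndufa4l2 were counted here because the Ndufa4 protein is a subunit of this complex. Cox7a2l, which joins complexes III and IV into supercomplexes, fell from 185.31 to 151.95 RPKM (CVs 0.06 and 0.04), a log2 ratio of -0.29 ± 0.05, and its adjusted p was 0.0200 in the authors' deposited table. Its other transcript moved alike, from 164.73 to 135.27 RPKM. Cox7b fell from 57.33 to 50.46 RPKM (CVs 0.04 and 0.03), a log2 ratio of -0.18 ± 0.04, and its adjusted p was 0.0164 in the authors' deposited table. Cox7c fell from 279.48 to 244.12 RPKM (CVs 0.04 and 0.06), a log2 ratio of -0.19 ± 0.05, and its adjusted p was 0.0351 in the authors' deposited table. After scaling by the total, limma called neither Cox7b (adjusted p 0.186, log2 ratio -0.08) nor Cox7c (adjusted p 0.208, log2 ratio -0.10), and after centring it did not call Cox7c (adjusted p 0.0629). The most abundant complex IV members, Cox4i1 (380.71 and 345.99 RPKM) and Cox6c (266.82 and 276.02 RPKM), were called by neither test on the values as deposited.

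Complex V had 16 members, with 1 called lower and 0 higher by the deposited p-value, and a median log2 ratio of -0.13, or -0.03 after scaling by the total. Limma called 5 lower and 0 higher on the values as deposited, Atp5g2, Atp5o, Atp5c1, Atp5k and Atp5j2, but 1 lower after scaling by the total and 2 after centring. Atp5b, the catalytic beta subunit of the F1 part, was the highest of all members with 493.53 and 466.02 RPKM, and its partner Atp5a1, the alpha subunit, had 299.32 and 305.32 RPKM. Atp5g2 encodes the c subunit, whose copies form the rotating ring of the membrane part. It fell from 228.42 to 179.93 RPKM (CVs 0.02 and 0.06), a log2 ratio of -0.34 ± 0.05, and its adjusted p was 0.0109 in the authors' deposited table. Atp5o, the peripheral stalk subunit that was the most abundant accessory member not called by the deposited p-value, had 255.25 and 216.75 RPKM and a limma adjusted p of 0.0155 (0.130 after scaling by the total).

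**Figure D2:**
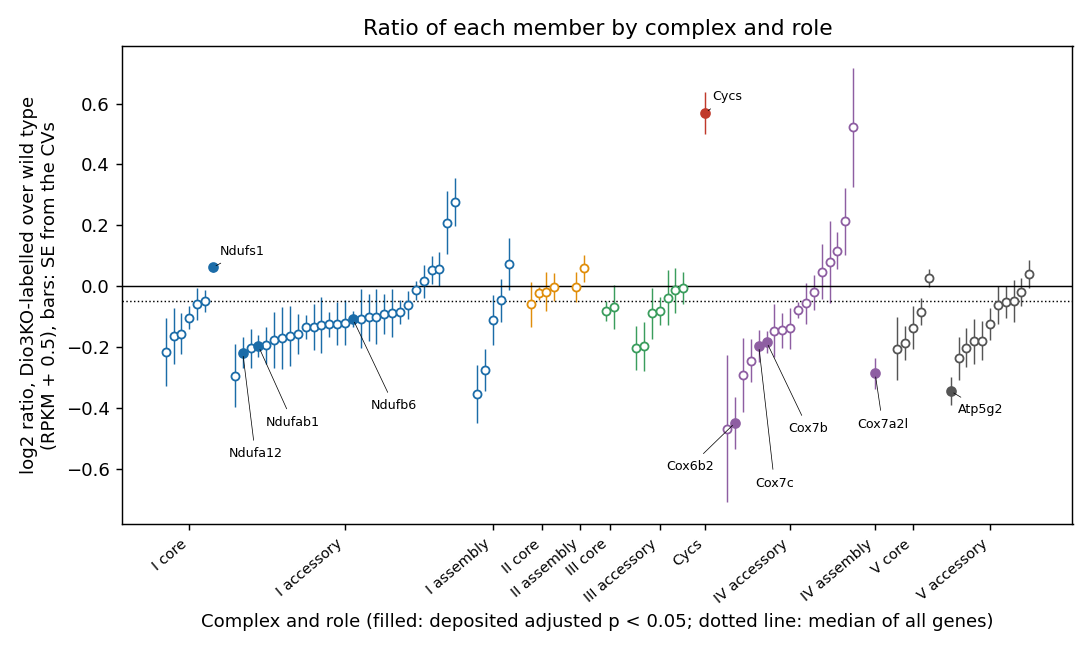
Log2 ratio of each member (Dio3KO-labelled over wild type, RPKM + 0.5) by complex and role, with bars of 1 SE from the deposited CVs, filled points for a deposited adjusted p below 0.05 and a dotted line at the median of all genes (-0.05). Cycs is the highest point at 0.57 and complex II lies between -0.06 and 0.06. Of the 8 filled points below 0, 7 are in the accessory columns, which hold 64 of the 91 members.

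By role and the deposited p-value, the 18 core subunits had 1 call higher and 0 lower with a median of -0.07, and the 64 accessory subunits 0 higher and 7 lower with a median of -0.11. The 8 assembly factors had 0 higher and 1 lower, with a median of -0.08. Among all genes 13.8% were called higher and 15.8% lower, with a median of -0.05. After scaling by the total the medians were 0.02, -0.01 and 0.01, against 0.044 for all genes. Limma on the values as deposited called 0 core subunits higher and 1 lower (Atp5c1), 2 accessory subunits higher and 16 lower, and 0 assembly factors higher and 3 lower. After scaling by the total it called 1 and 0, 7 and 2, and 1 and 3 in the same order. The balance turned for core subunits, on 1 call before and 1 after, and for accessory subunits. Over all genes it turned too, from 18.5% higher and 23.1% lower to 27.9% and 12.7%. Core and accessory subunits were not compared by a test, since genes of 1 complex are not replicates. Assembly factors other than Cox7a2l were at lower levels than the subunits they serve. Ndufaf2, a complex I factor and paralog of Ndufa12, had 21.19 RPKM (CV 0.12) and 16.49 RPKM (CV 0.06), with p = 0.0732 in the authors' deposited table. Limma called it lower, with an adjusted p of 0.00477 (0.0248 after scaling by the total and 0.0111 after centring). Ndufaf1, the factor of the intermediate assembly complex, had 17.34 and 18.26 RPKM.

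Several subunits have isoforms that differ between tissues, and in these testes the ubiquitous form made up most of nearly every pair. Cox4i1 was 99.5% of the Cox4 total in wild type, Cox6a1 99.8% and Cox8a 99.1%, and Ndufa4 was 98.9% of its pair with Ndufa4l2. The lung form Cox4i2 had 2.01 and 2.41 RPKM, and Ndufa4l2, known as a hypoxia-induced gene, 2.50 and 2.67 RPKM. Cox7b2 had the largest share of any minor form of a pair, at 19.1% of the Cox7b pair in wild type and 17.9% in the Dio3KO-labelled group. Shares are computed from group means and have no replicate spread.

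The 3 members known as testis isoforms, Cox6b2, Cox7b2 and Cox8c, were at lower levels than their somatic partners, and their ratios were below 0 under each scaling. Cox6b2, the germ cell form of Cox6b, fell from 7.45 to 5.33 RPKM (CVs 0.09 and 0.09), a log2 ratio of -0.45 ± 0.09, with p = 0.0175 in the authors' deposited table. Its 3 transcripts were each called lower. Its share of the Cox6b pair was 3.83% in wild type and 3.06% in the Dio3KO-labelled group. Cox7b2 had 13.55 RPKM (CV 0.15) and 10.99 RPKM (CV 0.09), and Cox8c had 1.78 RPKM (CV 0.24) and 1.15 RPKM (CV 0.40), neither called by the deposited p-value. Germ cell isoforms of energy genes outside the rule were not called either. The nucleotide carrier Slc25a31 had 32.85 and 30.05 RPKM. Testis cytochrome c, Cyct, had 6.27 and 5.82 RPKM. Its share of the cytochrome c total was 5.37% in wild type and 3.42% in the Dio3KO-labelled group, a total in which Cycs rose. The somatic partner Cox6b1 had 187.11 and 169.14 RPKM and was not called.

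The heart and muscle form Cox7a1 had 12.08 and 17.57 RPKM, the second highest log2 ratio of all members (0.52 ± 0.20). Its CV was 0.28 in wild type and 0.03 in the other group, and the difference had p = 0.103 in the authors' deposited table. The adjusted p by limma was 0.0291 (0.0136 after scaling by the total and 0.0208 after centring). Its share of the pair with Cox7a2, the ubiquitous form, was 8.83% in wild type and 14.3% in the other group, or 3.75% and 6.40% with the related Cox7a2l added to the sum. Cox7a2 itself had 124.65 and 105.20 RPKM, with p = 0.0820 in the authors' deposited table. Its limma adjusted p was 0.0123, or 0.105 after scaling by the total, so both forms entered the change in share. The 3 genes for the c subunit encode the same mature protein with different import sequences, so their sum is the transcript supply for 1 protein. That sum was 582 RPKM in wild type and 512 RPKM with the Dio3KO label. Atp5g2 was the most abundant in wild type, with 39.2% of the sum, and Atp5g3 in the Dio3KO-labelled group, with 36.6%. Atp5g1 had 164.30 and 144.90 RPKM and Atp5g3 189.65 and 187.33 RPKM, neither called. Whether the 3 genes differ in their change was not tested.

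**Figure D3:**
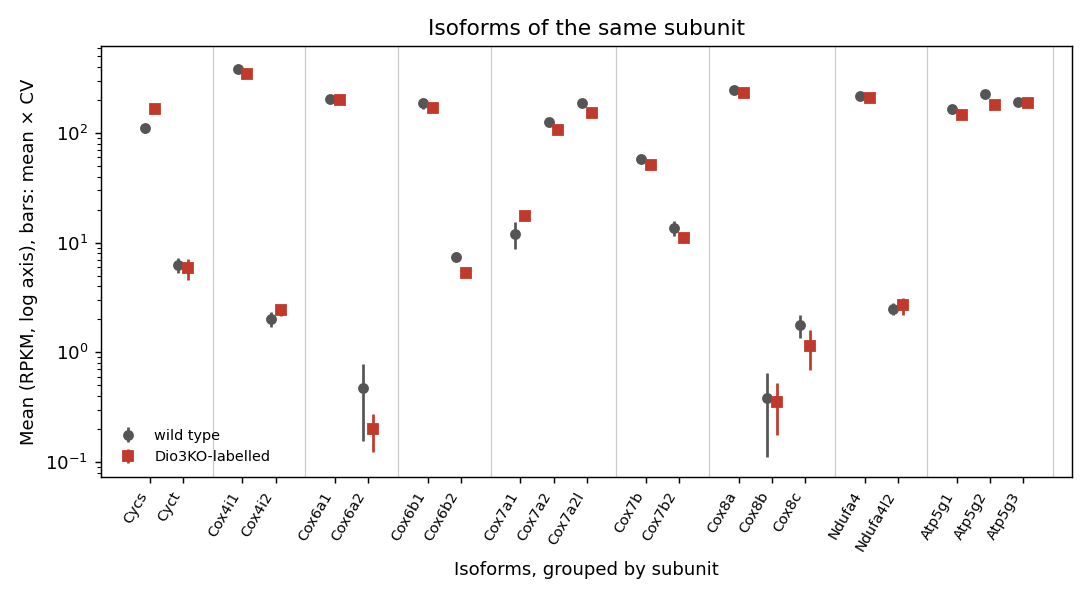
Mean RPKM (log scale) of each isoform of the subunits with several genes, in wild type and in the Dio3KO-labelled group, with bars of 1 SD from the deposited CVs. The 3 Atp5g genes lie between 145 and 228 RPKM, whereas most tissue-restricted forms lie far below their partners, Cox4i2 at 2.01 and Cox4i1 at 381 RPKM in wild type.

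The samples within a group differed more in wild type than in the Dio3KO-labelled group. The wild-type CV was the larger in 71 of 91 members (78.0%), against 59.5% of all genes, and the median CV of the members was 0.08 in wild type and 0.04 in the other group. Among genes whose larger mean reached 50 RPKM the share was 80.8% of members and 63.8% of genes. A CV of at least 0.10 was found in 28 members in wild type (30.8%, against 38.5% of all genes) and in 5 in the Dio3KO-labelled group (5.49%, against 25.8%). The members share samples, so these are not independent counts, and the table does not show which samples were high or low.

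**Figure D4:**
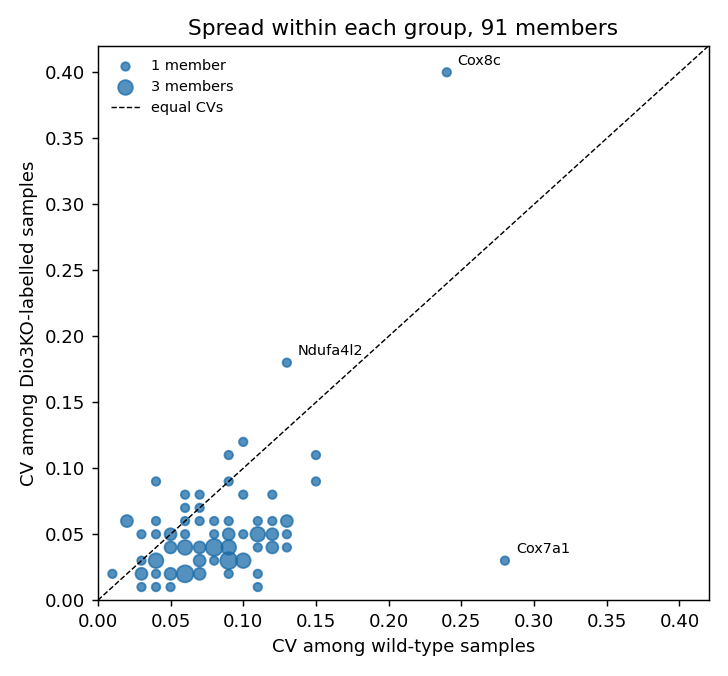
CV of each member among the 4 wild-type samples (horizontal) and among the 4 Dio3KO-labelled samples (vertical), both as fractions of the mean, with larger points where members coincide and a dashed line of equal CVs. Most points lie below the line (71 of 91), Cox7a1 is far to the right of it at 0.28 and 0.03, and Cox8c is above it at 0.24 and 0.40.

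Of the 31 members with more than 1 transcript, 29 had ratios of the same sign in all of them, and the calls differed between transcripts in Ndufs1, Ndufab1 and Atp5k. These transcripts share exons, so their values are not independent. Atp5k, which encodes the e subunit of complex V, had 151.00 and 131.32 RPKM in its main transcript (p 0.0997 in the authors' deposited table) and 75.84 and 63.22 RPKM in the other (p 0.0269 in the authors' deposited table).

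Other genes of the pathway were counted in the same way, by the deposited p-value unless limma is named, and are to be read against 13.8% of all genes called higher and 15.8% called lower. Of 9 further complex I assembly factors 1 was lower, Acad9 (17.43 and 15.18 RPKM). None of 5 for complex III was called, by the deposited p-value or by limma. Of 21 for complex IV 1 was higher, deposited as 6330578E17Rik, an older name of Coa5, which rose from 25.12 to 31.57 RPKM with p = 0.0037 in the authors' deposited table. Ccdc56, with the lowest log2 ratio of that list (-0.33, 38.85 and 30.70 RPKM), had p = 0.0902 in the authors' deposited table and was called lower by limma under each scaling (adjusted p 0.00647 to 0.0353). Of 5 genes of complex V assembly and regulation 1 was lower, Atpaf1, the chaperone of the F1 beta subunit (15.90 and 12.93 RPKM). Among mitochondrially encoded subunits 2 were matched without ambiguity. The symbols Cox2 (2825.53 and 3295.96 RPKM) and Atpase6 (1124.65 and 1378.90 RPKM) are each a synonym of a nuclear gene in RefSeq as well, and neither was called, with p = 0.233 and 0.210 in the authors' deposited table. Ptgs2, the nuclear gene that shares the symbol Cox2, had a line of its own with 0.08 and 0.14 RPKM. Cytb, the cytochrome b of complex III, rose from 200.07 to 263.80 RPKM (CVs 0.13 and 0.04), with p = 0.0432 in the authors' deposited table. The complex I subunit mt-Nd4 had 95.29 and 125.53 RPKM, with p = 0.0705 in the authors' deposited table, and limma called both higher.

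The 76 mitochondrial ribosomal proteins, which translate the mitochondrially encoded subunits, had 14 called lower (18.4%, against 15.8% of all genes) and 0 higher in the authors' deposited table. Limma on the values as deposited called 35 lower (46.1%, against 23.1% of all genes) and 1 higher. After scaling by the total it called fewer lower and more higher: Mrpl12 and Mrpl13 lost their calls (adjusted p 0.0790 and 0.0611), while Mrpl30, Mrpl23 and Mrps11 kept theirs. Over all genes the share called lower dropped to 12.7%. The median log2 ratio of the 76 was -0.18, or -0.08 after scaling by the total, against -0.05 and 0.044 for all genes. Mrpl30 fell from 77.96 to 64.00 RPKM, Mrpl23 from 49.43 to 39.71 RPKM and Mrps11 from 38.28 to 30.48 RPKM, while Mrpl33, the most abundant one not called, had 69.99 and 71.01 RPKM. Of 19 regulators of mitochondrial biogenesis, 4 were lower (21.1%) and 1 higher (5.26%). Tfam, which packages mitochondrial DNA, fell from 15.74 to 12.99 RPKM (p 0.0169 in the authors' deposited table). Gabpb2, a GABP subunit, fell from 17.39 to 15.68 RPKM (p 0.0085 in the authors' deposited table), and Tfb2m, a mitochondrial transcription factor, rose from 12.27 to 14.16 RPKM (p 0.0042 in the authors' deposited table). Nrf1, whose product binds the nuclear respiratory factor 1 motif, is outside the naming rule and fell from 18.09 to 14.83 RPKM (p 0.0315 in the authors' deposited table).

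Genes that supply the chain or exchange its products were called in both directions. Of 8 nucleotide carriers, porins and uncoupling proteins 4 were higher and 0 lower in the authors' deposited table, and limma called 2 higher. Slc25a5 and Slc25a4, which exchange ATP for ADP across the inner membrane, rose from 171.07 to 212.33 RPKM and from 153.12 to 181.99 RPKM, with p-values of 0.0030 and 0.0098 in the authors' deposited table. The outer membrane channel Vdac1 rose from 76.19 to 82.45 RPKM. Of 14 tricarboxylic acid cycle genes 2 were higher (14.3%) and 1 lower (7.14%). Suclg1 and Sucla2, the subunits of ADP-forming succinyl-CoA synthetase, rose from 48.75 to 82.94 RPKM and from 50.64 to 67.11 RPKM, and Idh2, the NADP-dependent isocitrate dehydrogenase, fell from 107.05 to 79.51 RPKM. Of 8 other enzymes that feed ubiquinone 2 were higher, Etfdh and Chdh, and 1 lower, Dhodh, a step of pyrimidine synthesis (10.77 and 9.10 RPKM).

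**Figure D5:**
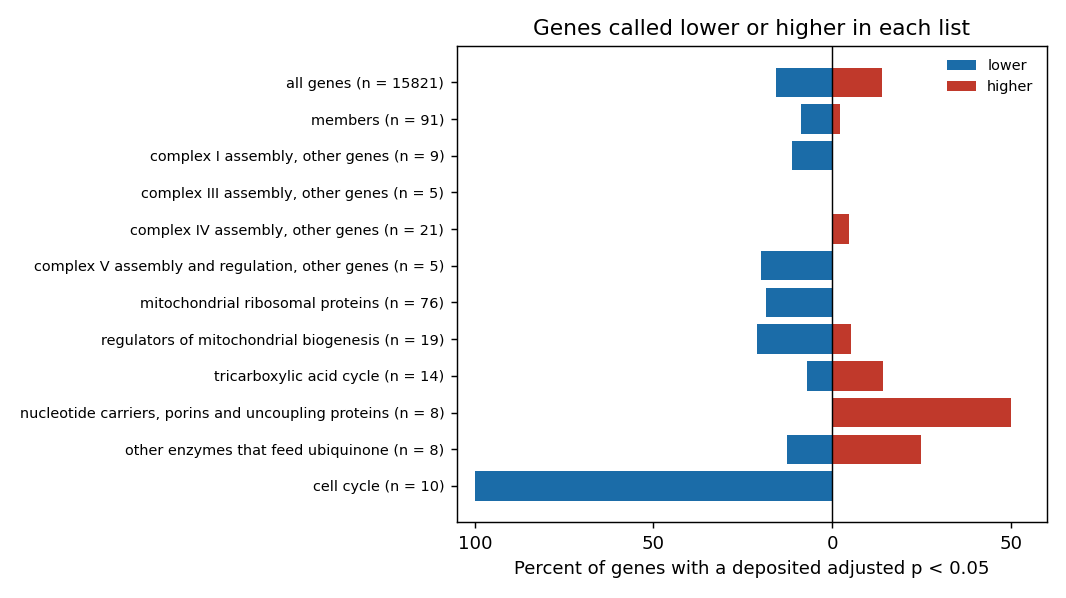
Percent of genes in each list with a deposited adjusted p below 0.05 that were lower (left, blue) or higher (right, red) in the Dio3KO-labelled group. The members have 8.79% lower and 2.20% higher against 15.8% and 13.8% of all genes, the mitochondrial ribosomal proteins have calls on the left alone, and the carriers and porins on the right alone.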

How the data were processed

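The authors deposited 1 table of transcripts with the mean RPKM of each group, the coefficient of variation of each group as a ratio of SD to mean, and an adjusted p-value of their comparison, per the file headers. The submitters' processing notes list FastQC, Novoalign 2.08 and the build mm10. Not given in the sources used here are the counting tool, the strandedness and how p-values were computed. The table held 147417 lines, each transcript 3 times, and 49139 transcripts were left. It held 0 columns of single samples, so the depth is unknown and counting intervals could not be had.

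Genes are deposited symbols with case ignored. Ratios are log2((Dio3KO-labelled + 0.5)/(wild type + 0.5)), which understates changes of low genes, with a delta-method SE from the CVs with 4 samples in each. Rose and fell mark a deposited adjusted p below 0.05. The alternative test squeezed CV-based variances with limma 3.58.1 in R 4.3.3 (a CV of 0 set to 0.0025) and adjusted by Benjamini-Hochberg over 15821 genes. Tested on simulated data of those 15821 genes for the same comparison, it recovered 38.8% of 1.25-fold, 68.7% of 1.5-fold and 98.5% of 2-fold changes, with 2.1% of calls false. In that simulation a small share of genes was changed, all upward, with the same CV in both groups and genes drawn independently. In the real data 41.6% of genes were called, in both directions, so these rates need not hold there.

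The members and lists were chosen with earlier results of these data known. The band of 0.30, the 50 RPKM level, the CV limit of 0.10, the promoter motifs, the older symbols looked up, the 3 symbols set aside and the placing of Cycs outside the core role were set after values were seen. Named genes are, for each complex and role, up to 3 called with the smallest p and the 2 most abundant not called, all isoforms, Cycs and Cyc1, the 3 highest and 3 lowest ratios, and for other lists up to 3 called and 1 not called. A few further genes, among them Sdhc, Sdhd, Atp5k, Ccdc56 and Nrf1, were named after their values were seen. A gene that the rule takes is counted but not reported here. Promoters came from RefSeq (GRCm38.p6, the assembly of mm10) by gene symbol. Alternatives covered the test, scaling, low-value filter, transcript choice and pseudocount.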

Additional observations from a re-analysis of the deposited data

How the results depend on the processing

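No paired analysis was possible because the table holds group means only, and for the same reason no replicate could be left out. The count of members called higher was 2 by the deposited p-value, 10 by limma after scaling by the total and 5 after centring on the median of all genes. The count called lower was 8 by the deposited p-value, 20 by limma on the values as deposited and 5 after scaling by the total. These counts stayed within 1.5 times with no filter on low values, with a minimum of 5 RPKM and with the transcript of the lowest p. Pseudocounts of 0.1 and 1 RPKM, RPKM summed over transcripts and the filters moved none of the medians by more than the spread used for comparison. By that spread, scaling by the total moved 6 medians and left 3 the same, those of complex I, complex III and assembly factors. The scaled medians were -0.0173 for complex I, 0.0883 for II, 0.0187 for III, -0.0416 for IV and -0.0303 for V. They were 0.0249 for core subunits, -0.0140 for accessory subunits and 0.0143 for assembly factors. For all members scaling by the total gave -0.003, against 0.044 for all genes. It also turned the sign of 12 named members, of which none was called: Ndufs3 to 0.0399, Ndufb9 to 0.0000, Sdha to 0.0756, Sdhb to 0.0819, Sdhaf1 to 0.0947, Cyc1 to 0.0311, Uqcrfs1 to 0.0187, Cox6a1 to 0.0800, Cox8a to 0.0213, Ndufa4 to 0.0433, Atp5b to 0.0167 and Atp5g3 to 0.0815. Centring turned 5 of them, Sdha to 0.0259, Sdhb to 0.0322, Sdhaf1 to 0.0481, Cox6a1 to 0.0299 and Atp5g3 to 0.0314. These shifts are the scaling itself, since each adds 1 constant to every log2 ratio of well expressed genes. With 4 samples per group and no values per sample, an outlying sample could not be seen.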
